A study of Mus musculus with 8 samples.

Results

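Granulocyte-monocyte progenitors (GMP) from mice with telomere dysfunction were compared with GMP from normal mice, on 2 arrays each. A gene entered the comparison where a probe set with a single gene symbol reached a signal of 50 on at least 2 of these 4 arrays. Where a gene had several, the probe set of highest mean signal was taken. This gave 8229 of the 18193 genes with such a probe set. The 4 arrays are those of the GMP among the 8 arrays of the study, whose other 4 held common myeloid progenitors (CMP).

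The normal group, G0 TERTER/+, carried 1 copy of a telomerase reverse transcriptase allele fused to the estrogen receptor, so the controls are heterozygotes and not wild type. The telomere-dysfunctional group, G4/G5 TERTER/ER, were late generations with 2 copies. All were male, with a background given as mainly C576BL/6, the spelling of the labels, and their age is not given in the sources used. Each array held RNA of a pool of 4 mice matched for age and sex, from 5000 to 20000 bone marrow cells taken by flow sorting. A group is therefore 2 pools, and pools numbered 1 and 2 were named as pairs of the 2 genotypes by the submitters. P-values and standard errors rest on how far the pools of a group differ. That spread was taken partly from the gene itself and partly from other genes of like signal.

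GMP arise from CMP and give rise to neutrophils and monocytes. On the way to a neutrophil, proteins of the primary granules, such as myeloperoxidase and the serine proteases, are made at the promyelocyte stage. Those of the secondary and tertiary granules, such as lactoferrin and the gelatinases, follow at the myelocyte and metamyelocyte stages, and chemoattractant receptors come last. The late neutrophil list used here holds such receptors and also calcium-binding S100 proteins, which are not confined to the last stage. Short telomeres are read by the cell as broken DNA ends, which calls on the ATM and ATR kinases and on p53, and telomerase lengthens them where its protein and RNA parts are present.

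The sorted cells carried the markers of GMP on all 4 arrays. The gate receptors Kit, Cd34 and Fcgr3 read 723 to 839.6, 880.2 to 1139 and 732 to 1457, and the primary granule genes Mpo and Prtn3 read 8679.7 to 10015 and 5806 to 6875. Of lymphocyte genes, Il7r read at most 10.2, Cd3e at most 8.94, Cd4 at most 2.86, Cd8a at most 24 and Ms4a1 at most 9.65. Others gave clear signal on all 4 arrays. The immunoglobulin heavy chain gene Ighm read 586 and 690.3 in G0, compared with 388 and 589 in G4/G5. Nkg7, a granule protein gene of NK and T cells that is also in the primary granule list used here, read 1465 and 1623 against 1613 and 1579. The groups overlapped in both. Itgam, a surface integrin of mature myeloid cells, read 8.55 and 24.4 in the G0 pools, compared with 39.2 and 38.3 in G4/G5, below the level of 50 in both. Ly6a and Ly6g were not analysed here. The 2 probe sets of Tert, the modified gene, reached at most 13 and 7.39, and since the allele is a fusion they do not check the genotype labels. Median signal ran from 14.3 to 15.7, and from 31.6% to 32.7% of probe sets reached 50 on each GMP array.

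Telomere-dysfunctional GMP carried more RNA of most granule and late neutrophil genes tested and less of 4 of the 15 heat shock chaperones tested. Of the 8229 genes, 327 (3.97%) passed limma's test at an adjusted p under 0.05, of which 246 (2.99% of the genes) were higher and 81 (0.984%) were lower in G4/G5. At an unadjusted p under 0.05 there were 1956. All log2 values here are differences, G4/G5 minus G0, of log2(signal + 10) with the standard error of the fit, from 2 pools against 2, and on this scale the change of a dim gene comes out too small. The rises were the larger changes: 27 genes rose by 2 or more and 3 fell by 2 or more, and the median was 0.82 among genes called higher and -0.67 among those called lower, beside 0.0063 for all genes tested. All 327 had groups that did not overlap, as did 55.8% of the genes tested. In bulk RNA, more cells of a type and more RNA per cell cannot be told apart.

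The calls rest on few arrays. Without G0 pool 1, 209 genes passed, and without G0 pool 2, 940 passed (590 higher and 350 lower), while 245 and 249 passed without G4/G5 pool 1 or 2, and 131 (107 higher and 24 lower) passed in each of these 4 fits. With 1 mean per group over all 8 arrays limma called 0 genes (654 had an unadjusted p under 0.05), and without G4/G5 CMP pool 1, an alternative chosen after seeing the data, 45 passed, all of them among the 327.

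**Figure D1:**
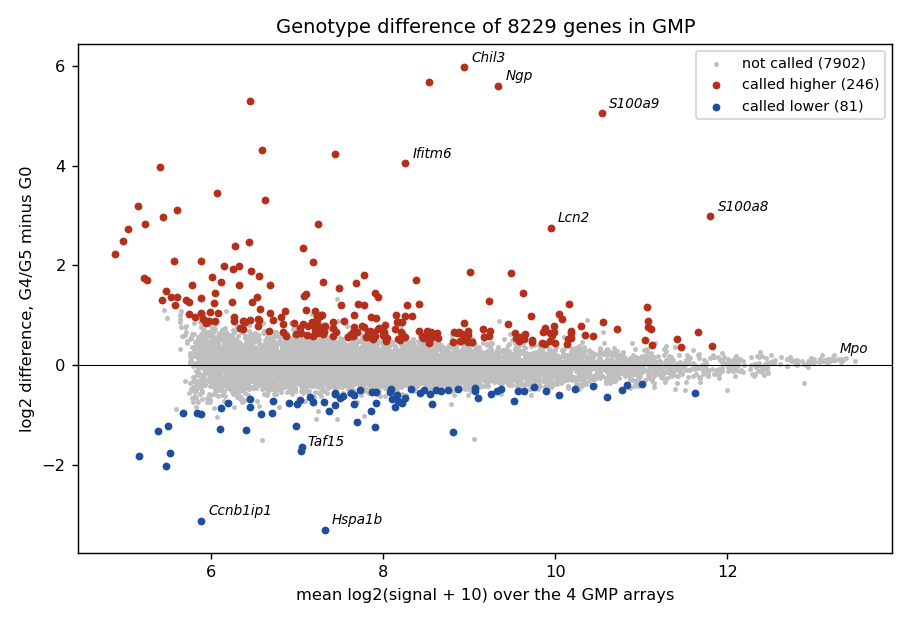
Log2 difference (G4/G5 minus G0) of each of the 8229 genes in GMP against its mean log2(signal + 10) over the 4 arrays, with 246 genes called higher in red and 81 called lower in blue. The calls above 2 spread over the whole range of signal, from genes near the filter to S100a8 and S100a9, while Mpo, at the right end, lies near 0.

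The G0 pools were less alike than the G4/G5 pools in the genes that changed. The principal component that held 74.9% of the variance placed G0 pool 1 at -22.4 and G0 pool 2 at -10.7, against 16.5 and 16.6 for the G4/G5 pools. G0 pool 2 read above G0 pool 1 in 205 of the 246 genes called higher and below it in 56 of the 81 called lower, while it read above it in 50.3% of all genes tested. Over all genes the median absolute difference between pools was 0.14 in G0 and 0.12 in G4/G5.

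Chil3, a chitinase-like protein stored in neutrophil granules, had the largest rise. Its signal was 21.3 and 112 in the G0 pools, compared with 3600.2 and 4140.5 in the G4/G5 pools, a log2 difference of 5.97 ± 0.48 (adjusted p = 0.000654). Camp, the precursor of the antimicrobial peptide cathelicidin, read 10.4 and 120.0 against 2229 and 3107 (5.68 ± 0.66, adjusted p = 0.00325). Ngp, a neutrophil granule protein of the cystatin family, read 22.1 and 258 against 4257 and 4743 (5.60 ± 0.74, adjusted p = 0.00644). For these 3 genes the G4/G5 pools lay close together, and G0 pool 2 stood well above G0 pool 1 but far below both G4/G5 pools.

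The calcium-binding protein S100a9 read 96.1 and 618 in G0, compared with 8342 and 8776 in G4/G5 (5.05 ± 0.62, adjusted p = 0.00440). Its partner S100a8, with which it forms the heterodimer calprotectin, read 898 and 1753 against 9762 and 10308 (2.99 ± 0.24, adjusted p = 0.000654). Ltf, which encodes the iron-binding protein lactoferrin, read 12 and 62.6 against 573 and 965 (4.24 ± 0.47, adjusted p = 0.00270). The groups did not overlap in any of the 3, and G0 pool 2 was again the higher of the G0 pools.

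The collagenase gene Mmp8 and the gelatinase gene Mmp9 encode proteases of the later granules. Mmp8 read 16.2 and 27.3 in G0, compared with 305 and 293 in G4/G5 (3.30 ± 0.19, adjusted p = 7.21e-05), and Mmp9 read 1.09 and 26.9 against 195 and 229 (3.45 ± 0.45, adjusted p = 0.00624). Fpr2, a receptor for formylated bacterial peptides, read 5.71 and 20.1 against 373 and 469 (4.30 ± 0.28, adjusted p = 0.000155). Ifitm6, a member of the interferon-induced transmembrane family, read 49.8 and 84.3 against 1369 and 1101 (4.04 ± 0.20, adjusted p = 6.60e-05). The G0 readings of Mmp8, Mmp9 and Fpr2 lay below the filter of 50, so these genes entered the test through the G4/G5 pools.

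The stefins are small inhibitors of cysteine proteases encoded by neighbouring genes, and 2 of them were among the 12 largest rises. Stfa2l1 read 1.60 and 6.63 in G0, compared with 738 and 389.8 in G4/G5 (5.30 ± 0.29, adjusted p = 7.19e-05), and Stfa3 read 0.961 and 0.381 against 274 and 88.4 (3.97 ± 0.43, adjusted p = 0.00258). Crispld2, a secreted protein that binds bacterial lipopolysaccharide, read 1.69 and 1.91 against 119 and 78.7 (3.18 ± 0.28, adjusted p = 0.000908). For these genes it was G4/G5 pool 1 that read highest, and their G0 signals were close to 0. Stefin genes are close copies of each other, and probe sets may not part them. The 12 largest rises passed in each of the 4 fits that left out a pool, and 6 of the 12 passed with no signal filter.

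**Figure D2:**
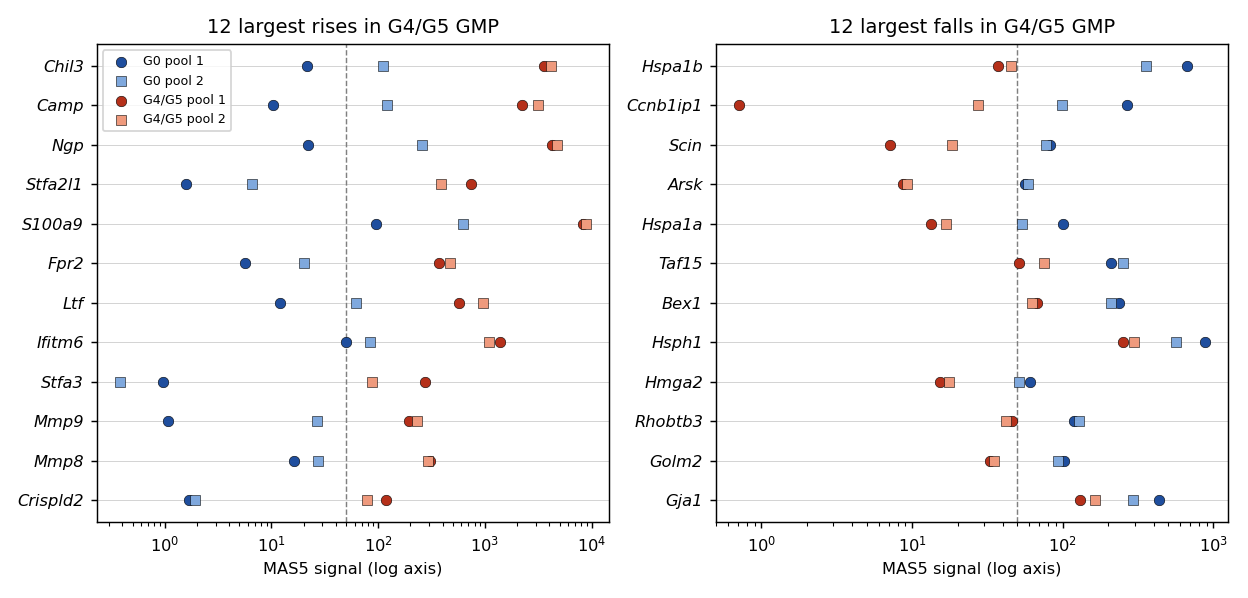
MAS5 signal (log axis) of the 12 genes with the largest rises and the 12 with the largest falls among those called, in each GMP pool, with a dashed line at the filter of 50. In every gene the 2 G4/G5 pools (red) lie on one side of the 2 G0 pools (blue), and for Camp, Ngp and S100a9 G0 pool 2 lies between G0 pool 1 and the G4/G5 pools.

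Beyond these genes, the secondary and tertiary granule list lay higher throughout. All 27 of its genes with a probe set lay higher in G4/G5 (median 1.84, against 0.0063 for all genes tested). Of the 25 that reached the filter 21 rose and none fell, beside 2.99% and 0.984% of all genes tested. Below 50 in both G0 pools were 8 of the 25. Lcn2, the siderophore-binding protein lipocalin, read 352 and 388 in G0, compared with 2499 and 2602 in G4/G5 (2.75 ± 0.10, adjusted p = 5.74e-06), and its G0 pools were nearly equal. Cd177, a surface glycoprotein of neutrophils, read 5.47 and 7.69 against 120.0 and 147 (3.11 ± 0.22, adjusted p = 0.000264). Hp, which encodes haptoglobin, was well above the filter in G0, at 665 and 790.0, and read 1515 and 1474 in G4/G5 (1.03 ± 0.11, adjusted p = 0.00228). Anxa1, the annexin of neutrophil granules, read 2459 and 2637 against 4071 and 4029 (0.67 ± 0.08, adjusted p = 0.00325). The 4 tested members that did not pass were Wfdc17 (0.06), Adpgk (0.24), Anxa3 (0.35) and Ltb4r1 (0.66). Summed over the list, signal was 6102 and 7218 in the G0 pools, compared with 26847 and 28434 in the G4/G5 pools.

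Promoter sequence is shown for 3 of these genes because secondary granule genes are textbook targets of the C/EBP transcription factors. The motif TTGCNNAA was searched on both strands in the window from 250 bases before to 50 after each start in RefSeq (GRCm38.p6), which held a promoter for 6798 of the 8229 genes. The motifs here were chosen after the expression values were seen. TTGCNNAA occurred in 7.97% of the promoters of genes tested, in 26 of 194 (13.4%) of genes called higher and in 6 of 71 (8.45%) of genes called lower. It occurred in 5 of 21 of the secondary and tertiary granule genes and in 4 of 17 of the primary granule genes, whose differences were smaller. The purine-rich motif GAGGAAGT of PU.1, the factor of the myeloid lineages, occurred in 3.41% of all promoters and 16 of 194 (8.25%) of genes called higher. It was in 4 of 21 of the secondary and tertiary and 4 of 17 of the primary granule genes. The 150 bases before the start of Ngp (chr9:110419658-110419807, + strand), Ltf (chr9:111019142-111019291, + strand) and Mmp8 (chr9:7558279-7558428, + strand) read as follows, with the C/EBP motif in capitals. A match is a description of the letters and not a bound site.
Ngp: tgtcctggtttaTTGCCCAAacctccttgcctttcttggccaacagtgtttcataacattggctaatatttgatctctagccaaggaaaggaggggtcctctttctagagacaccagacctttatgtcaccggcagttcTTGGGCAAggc
Ltf: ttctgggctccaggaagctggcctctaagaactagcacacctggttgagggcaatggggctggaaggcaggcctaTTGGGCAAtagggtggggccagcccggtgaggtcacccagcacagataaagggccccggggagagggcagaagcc
Mmp8: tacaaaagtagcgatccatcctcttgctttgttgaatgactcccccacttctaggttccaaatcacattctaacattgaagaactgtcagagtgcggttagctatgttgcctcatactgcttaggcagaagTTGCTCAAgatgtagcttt

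Genes of late neutrophils rose as well. Of the 34 with a probe set 32 lay higher and 2 lower (median 0.79). Of the 25 that reached the filter 21 rose and none fell, beside 2.99% and 0.984% of all genes tested. Below 50 in both G0 pools were 7 of the 25. S100a6, another S100 protein, read 29.8 and 71.1 in G0, compared with 392 and 395 in G4/G5 (2.83 ± 0.27, adjusted p = 0.00160), and Il1r2, the decoy receptor for interleukin 1, read 9.72 and 2.09 against 142 and 86.1 (2.97 ± 0.32, adjusted p = 0.00257). Slfn4, a Schlafen gene of myeloid cells, read 43.3 and 55.9 against 279 and 309 (2.36 ± 0.15, adjusted p = 0.000150). Trem3, an activating receptor of myeloid cells, was already well expressed in G0 and went from 798 and 749.9 to 1610.5 and 1366 (0.93 ± 0.11, adjusted p = 0.00318). Other neutrophil genes did not pass or did not reach the filter. Csf3r, the receptor for granulocyte colony-stimulating factor, had 0.09 ± 0.11 (adjusted p = 0.668), and Cxcr2, the chemokine receptor of blood neutrophils, stayed below the filter at 49.5 and 40.1 in G0, compared with 44.8 and 82.6 in G4/G5. Il1b read at most 18.6, Ptgs2 at most 3.38 and Acod1 at most 1.12 on any GMP array. Without G4/G5 pool 2 the number of late genes that rose was 12, and it was 17 without G0 pool 1, 21 without G0 pool 2 and 16 without G4/G5 pool 1.

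The phagocyte NADPH oxidase, which makes superoxide, had all 6 of its genes higher, and 3 of them rose, beside 2.99% of all genes tested. Cybb, its catalytic membrane subunit, read 156 and 195 in G0, compared with 539.9 and 656 in G4/G5 (1.72 ± 0.14, adjusted p = 0.000688). The other membrane subunit, Cyba, had 0.56 ± 0.10 (adjusted p = 0.0235) and the cytosolic organiser Ncf1 had 0.58 ± 0.09 (adjusted p = 0.0145). Ncf4 (0.27 ± 0.10), Rac1 (0.20 ± 0.09) and Rac2 (0.17 ± 0.09) did not pass. The call of Cyba was lost without G4/G5 pool 1 (adjusted p up to 0.0846) and that of Ncf1 without G4/G5 pool 2 (adjusted p up to 0.0543).

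The primary granule list had smaller differences. It is not confined to proteins of these granules, and Hp is in the secondary and tertiary list too. All 20 of its genes were tested, 18 lay higher (median 0.22) and 6 rose, beside 2.99% of all genes tested. The 6 did not include Mpo or the serine protease genes Prtn3, Ctsg and Elane. Mpo read 9505 and 8679.7 in G0, compared with 10015 and 10013 in G4/G5 (0.14 ± 0.07, adjusted p = 0.260), the proteinase gene Prtn3 had 0.17 ± 0.07 (adjusted p = 0.191), the cathepsin Ctsg 0.21 ± 0.06 (adjusted p = 0.0970) and the elastase Elane 0.33 ± 0.14 (adjusted p = 0.190). Those that rose included both lysozymes, Lyz2 at 571 and 951 against 1316 and 2323 (1.23 ± 0.28, adjusted p = 0.0479) and Lyz1 at 1156 and 1721 against 2551 and 3996 (1.17 ± 0.22, adjusted p = 0.0263). In both lysozymes pool 2 read higher than pool 1 in each genotype, and the 2 genes are near copies whose signal may not be parted. The others that rose were Hp, the glutathione transferase Gstm1 (0.78 ± 0.13, adjusted p = 0.0192), the protease inhibitor Slpi (0.68 ± 0.15, adjusted p = 0.0479) and Igsf6 (0.63 ± 0.10, adjusted p = 0.0161). Without G0 pool 1 the calls of Lyz2 and Slpi were lost, and without G4/G5 pool 2 those of Slpi and Igsf6 (adjusted p up to 0.102), which left 4 that rose in each fit, and without G0 pool 2 it was 9.

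Over the granule, late neutrophil and oxidase lists together, 47 of 71 genes tested rose, beside 2.99% of all genes tested. Of the 27 genes with a rise of 2 or more, 18 were among them. The lists were chosen with earlier results of these data known, and some members reached the filter through the G4/G5 pools alone. Summed signal of the late neutrophil list was 8791 and 10744 in the G0 pools, compared with 31291 and 32787 in the G4/G5 pools. Its members are themselves among the rises above, S100a8 and S100a9 included, so the sum is no separate marker of more mature cells. The part of more mature cells in these rises was not tested.

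**Figure D3:**
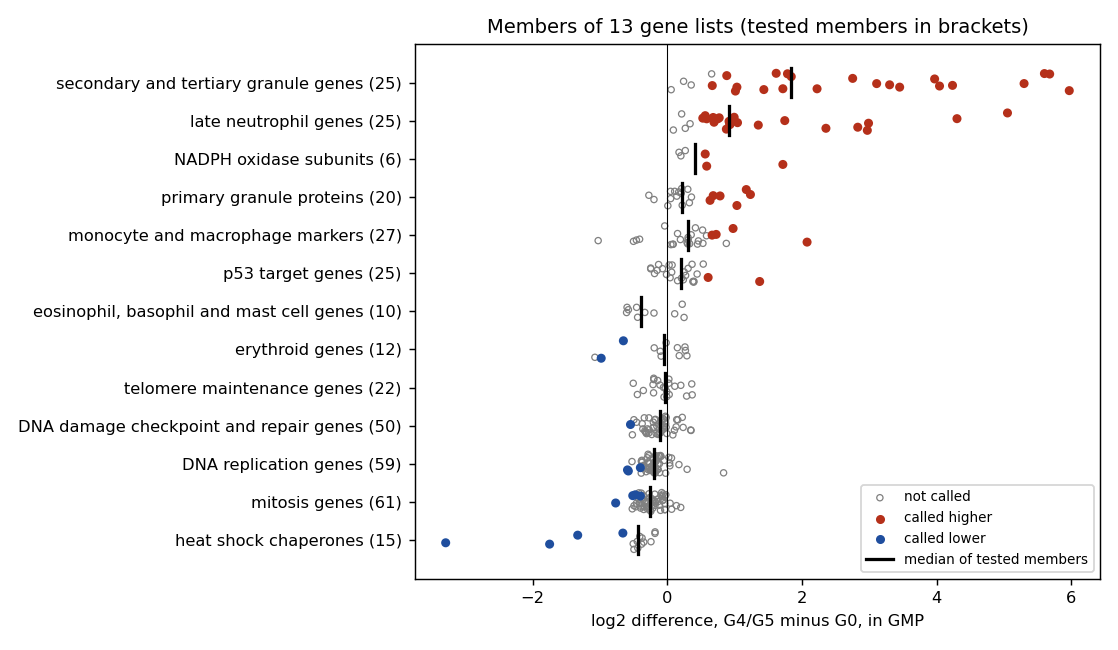
Log2 difference (G4/G5 minus G0) of each tested member of 13 gene lists in GMP, with genes called higher in red, called lower in blue and others open, and a bar at the median of the tested members. The secondary and tertiary granule genes reach to 5.97 and the heat shock chaperones to -3.29, and the telomere maintenance genes lie on both sides of 0.

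Among markers of monocytes and macrophages 4 rose. Of the 40 with a probe set 30 lay higher and 10 lower (median 0.24). Of 27 tested 4 rose and none fell, beside 2.99% and 0.984% of all genes tested. Lgals3, the galectin of macrophages, read 43.4 and 83.3 in G0, compared with 265 and 311 in G4/G5 (2.08 ± 0.23, adjusted p = 0.00306). F13a1, a clotting factor subunit of monocytes, had 0.73 ± 0.16 (adjusted p = 0.0435), the lysosomal glycoprotein Cd68 had 0.66 ± 0.15 (adjusted p = 0.0479) and the receptor Flt3, which dendritic cell and multipotent progenitors carry, read 187 and 258 against 452 and 433 (0.98 ± 0.15, adjusted p = 0.0124). Several defining genes of monocyte fate did not pass: Csf1r had 0.31 ± 0.23 (adjusted p = 0.449), Irf8 0.19 ± 0.22 (adjusted p = 0.622) and Ccr2 0.33 ± 0.14 (adjusted p = 0.196). Cx3cr1, the fractalkine receptor of monocytes, lay lower, at 78.9 and 92.6 against 27.3 and 48.9 (-1.03 ± 0.24, adjusted p = 0.0512) with no overlap. The tissue macrophage genes C1qa, C1qb and C1qc read at most 3.44, 10.6 and 5.56. The number that rose was 10 without G0 pool 2, 7 without G4/G5 pool 1 and 2 without G4/G5 pool 2, and up to 2 fell in such a fit. The calls of F13a1 and Cd68 were lost without G4/G5 pool 2 (adjusted p = 0.0521 and up to 0.160), and that of Cd68 also without G0 pool 1. With the pool number as a block 9 rose and Cx3cr1 fell (adjusted p = 0.0351).

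Among the transcription factors of the myeloid lineages, 2 of 27 tested rose and none fell (median 0.0099), beside 2.99% and 0.984% of all genes tested. Id2, an inhibitor of basic helix-loop-helix factors, read 40.5 and 58.1 in G0, compared with 181 and 158 in G4/G5 (1.61 ± 0.18, adjusted p = 0.00274), and Gfi1, a repressor needed for neutrophil formation, had 0.49 ± 0.09 (adjusted p = 0.0259), called in 1 of the 4 fits without a pool. Cebpa, the factor that GMP need to form, read 275 and 259 against 248 and 249 (-0.10 ± 0.11, adjusted p = 0.622). Of 21 cytokine and gate receptors tested, only Flt3 rose.

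Among the erythroid and megakaryocyte genes 3 fell, and none of the eosinophil, basophil, mast cell, lymphoid or stromal genes tested passed by limma. Of all genes tested 0.984% fell. Of 19 eosinophil, basophil and mast cell genes 12 lay lower, and of 10 tested none passed. The mast cell and basophil genes Ms4a2 (-0.61 ± 0.22, adjusted p = 0.150), Cpa3 (-0.46 ± 0.15, adjusted p = 0.126) and Mcpt8 (-0.33 ± 0.10, adjusted p = 0.107) read lower in both G4/G5 pools without passing, and with the pool number as a block Cpa3 passed (adjusted p = 0.0349). Of 12 erythroid genes tested 2 fell, the erythroid transcription factor Klf1, at 74.7 and 70.2 against 30.5 and 33 (-0.98 ± 0.18, adjusted p = 0.0259), and carbonic anhydrase Car2, at 626 and 729.8 against 434 and 419 (-0.65 ± 0.11, adjusted p = 0.0191). Of 8 megakaryocyte genes tested 1 fell, the platelet chemokine Pf4, at 192 and 248 against 128 and 114 (-0.80 ± 0.15, adjusted p = 0.0255). Klf1 was lost without G0 pool 1 or G4/G5 pool 1 (adjusted p up to 0.0698). Of 18 stem and multipotent genes tested only Flt3 passed, beside 3.97% of all genes tested. B lymphoid, T and NK lymphoid and stromal lists had 3, 2 and 3 genes at the filter, and none of these 8 passed. The 3 stromal genes lay higher, with Pdgfrb, a growth factor receptor of mesenchymal cells, at 167 and 245 against 237 and 263 (0.29 ± 0.17, adjusted p = 0.332). The megakaryocyte gene Selp, for the adhesion protein P-selectin, also lay higher (0.50 ± 0.20, adjusted p = 0.177). The Y-linked gene Eif2s3y read 324 and 389.6 in G0, compared with 707 and 584 in G4/G5 (0.84 ± 0.13, adjusted p = 0.0145) in mice that were all male. It was the 1 that passed of 3 tested in the list of Y-linked genes and Xist. The other 2 lay slightly lower, down to -0.15.

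The heat shock chaperones, which fold other proteins and many of which the factor HSF1 induces under stress, had the lowest median of the 37 gene lists. All 15 tested lay lower in G4/G5 (median -0.44). The groups did not overlap in 14 (26.6% of all genes tested did not overlap and were lower). Of the 15, 4 fell, beside 0.984% of all genes tested. The 2 genes of the list below the filter, Cryab and Hspb1, lay higher, so that of 17 on the array 15 lay lower. Hspa1b, an inducible HSP70, read 666 and 359 in G0, compared with 37 and 45.3 in G4/G5, and fell by 3.29 ± 0.25 on the log2 scale (adjusted p = 0.000438). Its 2 other probe sets lay on the same side. The adjacent and nearly identical gene Hspa1a read 101 and 53.9 against 13.4 and 16.8 and fell by 1.75 ± 0.29 (adjusted p = 0.0166). Probe sets may not part these 2 genes, so they may not be 2 separate falls. Hsph1, the HSP110 that recharges HSP70 with nucleotide, read 876 and 563 against 251 and 297 and fell by 1.33 ± 0.19 (adjusted p = 0.00907), and Stip1, the adaptor between HSP70 and HSP90, fell by 0.66 ± 0.13 (adjusted p = 0.0319). The call of Stip1 was lost without G0 pool 1 or G4/G5 pool 2 (adjusted p up to 0.101).

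The other 11 chaperones tested did not pass, with log2 differences from -0.51 to -0.18. Hspa8, the constitutive HSP70, read 9563 and 7624 in G0, compared with 6223 and 7206 in G4/G5 (-0.35 ± 0.11, adjusted p = 0.116), and Hsp90aa1, the inducible HSP90, read 5619 and 5249 against 4815 and 4756 (-0.18 ± 0.07, adjusted p = 0.174). The mitochondrial pair Hspd1 and Hspe1 had -0.50 ± 0.14 (adjusted p = 0.0807) and -0.44 ± 0.13 (adjusted p = 0.0921), and the HSP70 cochaperones Dnaja1 and Dnajb1 had -0.45 ± 0.13 and -0.38 ± 0.10 (adjusted p = 0.0921 and 0.0791). G0 pool 1 read above G0 pool 2 in all 15. Without G0 pool 1, 3 fell and the median was -0.27, and without G0 pool 2, 12 fell and it was -0.64. With the pool number as a block 7 fell.

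**Figure D4:**
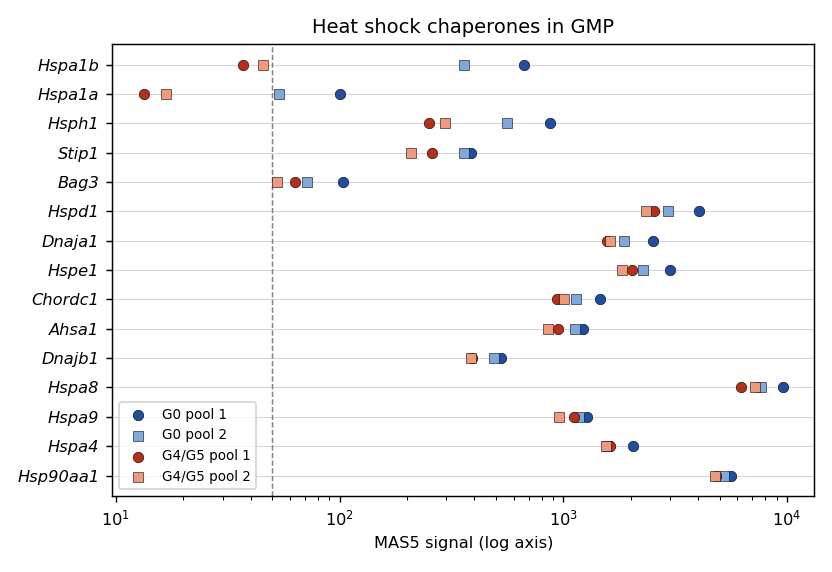
MAS5 signal (log axis) of the 15 heat shock chaperones tested, ordered by log2 difference, in each GMP pool, with a dashed line at the filter of 50. G0 pool 1 (dark blue circles) reads highest in every gene, the G4/G5 pools (red) lie below both G0 pools in 14, and the gap is widest for Hspa1b.

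The promoters of Hspa1b and Hspa1a are shown because the 2 genes fell together and share their upstream sequence. HSF1 binds inverted repeats of GAA, searched as GAANNTTC, which reads the same on both strands. It occurred in 5.28% of the promoters of genes tested and in 7 of 12 (58.3%) of the chaperones tested. The 150 bases before the start of Hspa1b (chr17:34959239-34959388, - strand, GRCm38.p6) and Hspa1a (chr17:34972157-34972306, - strand) were identical at 149 of 150 positions, and the motif is in capitals.
Hspa1b: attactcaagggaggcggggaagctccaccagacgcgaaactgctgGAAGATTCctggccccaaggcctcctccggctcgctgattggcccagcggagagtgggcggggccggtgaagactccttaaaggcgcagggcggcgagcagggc
Hspa1a: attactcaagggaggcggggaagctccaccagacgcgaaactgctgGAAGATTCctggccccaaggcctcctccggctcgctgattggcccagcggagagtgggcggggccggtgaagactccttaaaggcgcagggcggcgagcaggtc

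Genes of cell division lay lower by small amounts. Of 61 mitosis genes tested 57 lay lower (median -0.26) and 4 fell, and of 59 DNA replication genes 52 lay lower (median -0.20) and 3 fell. Of all genes tested 50.9% lay higher, 49.1% lay lower and 0.984% fell. Ckap2l, a spindle protein, read 232 and 276 in G0, compared with 140.4 and 149 in G4/G5 (-0.77 ± 0.13, adjusted p = 0.0174). The kinesins Kif11, which pushes spindle poles apart, and Kif23, which works in cytokinesis, had -0.51 ± 0.11 (adjusted p = 0.0415) and -0.48 ± 0.11 (adjusted p = 0.0479). Top2a, the topoisomerase that untangles sister DNA, is in both lists and read 2112 and 2048 against 1600.2 and 1547 (-0.40 ± 0.08, adjusted p = 0.0368). The replication genes that fell besides it were Uhrf1, which brings maintenance methylation to new DNA, at 1356 and 1209.7 against 843 and 850.3 (-0.59 ± 0.10, adjusted p = 0.0161), and the polymerase delta subunit Pold3 (-0.58 ± 0.10, adjusted p = 0.0243). Other Pold3 probe sets at the filter went both ways, at -0.32 and 0.19.

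The calls of Kif11, Pold3 and Top2a were each lost in 2 or 3 of the 4 fits without a pool, and Kif23 passed in none of them (adjusted p up to 0.154). Among members that did not pass, the proliferation marker Mki67 had -0.36 ± 0.10 (adjusted p = 0.0859), the mitotic kinase gene Cdk1 -0.47 ± 0.11 (adjusted p = 0.0602) and the helicase subunit Mcm5 -0.24 ± 0.08 (adjusted p = 0.135), whereas the helicase subunit Mcm7 had 0.02 ± 0.07 (adjusted p = 0.882). The number of mitosis genes that fell was 1 without G0 pool 1, 9 without G0 pool 2 and 2 without G4/G5 pool 2, and the number of replication genes was 2, 10 and 1. E2f2, a transcription factor of the replication list, had that list's largest difference and lay higher, at 41.2 and 31.1 in G0, compared with 78.4 and 65.9 in G4/G5 (0.84 ± 0.20, adjusted p = 0.0576), with no overlap. With the pool number as a block 8 mitosis and 5 replication genes fell and E2f2 rose (adjusted p = 0.0486).

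The cell cycle homology region, TTTGAA, is the promoter element through which mitotic genes are held down outside of division. It was found on either strand in 12.2% of the promoters of genes tested and in 38 of 53 (71.7%) of the mitosis genes. It was found in 13 of 71 (18.3%) of genes called lower, 25 of 194 (12.9%) of genes called higher and 5 of 21 of the secondary and tertiary granule genes. The 80 bases before the start of 3 mitosis genes that fell are given with the motif in capitals, for Ckap2l (chr2:129297213-129297292, - strand, GRCm38.p6), Kif11 (chr19:37376302-37376381, + strand) and Top2a (chr11:99024190-99024269, - strand).
Ckap2l: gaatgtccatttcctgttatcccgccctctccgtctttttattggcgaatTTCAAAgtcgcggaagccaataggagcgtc
Kif11: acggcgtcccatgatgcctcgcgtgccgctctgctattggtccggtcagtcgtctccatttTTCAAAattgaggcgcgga
Top2a: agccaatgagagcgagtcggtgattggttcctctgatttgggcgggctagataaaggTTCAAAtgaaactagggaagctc

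Targets of p53 lay higher in part. Of 41 with a probe set 26 lay higher and 15 lower (median 0.089). Of 25 tested 18 lay higher (median 0.21) and 2 rose, beside 50.9% and 2.99% of all genes tested. Trp53inp1, a p53 cofactor and target with a part in autophagy, read 101 and 200.3 in G0, compared with 382 and 387 in G4/G5 (1.37 ± 0.25, adjusted p = 0.0242), and the nucleotide excision repair sensor Xpc read 349 and 460.0 against 588 and 644 (0.61 ± 0.14, adjusted p = 0.0496). The classic targets did not pass. The cell cycle inhibitor Cdkn1a read 59.2 and 71.4 against 79 and 99.4 (0.40 ± 0.17, adjusted p = 0.213), the cyclin gene Ccng1 656 and 599 against 803 and 910.0 (0.44 ± 0.11, adjusted p = 0.0584), and Mdm2, the ubiquitin ligase of p53, 196 and 163 against 155 and 144 (-0.25 ± 0.13, adjusted p = 0.298). The RNA-binding target Zmat3 had fewer than 2 arrays at the filter on its probe set and read 19.5 and 21.5 against 48.4 and 58.2. The death gene Bbc3 was below the filter, at most 35.6, and the death gene Pmaip1 had 0.06 ± 0.21 (adjusted p = 0.875). Xpc was lost without G0 pool 1 or G4/G5 pool 2 (adjusted p up to 0.127).

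Most tested genes of the machinery that senses and repairs broken DNA lay lower by small amounts, and none rose. Over all genes tested 49.1% lay lower, 0.984% fell and 2.99% rose. Of 50 tested 41 lay lower (median -0.11) and 1 fell, the Fanconi pathway enzyme Ube2t, at 214 and 247 against 155 and 151 (-0.56 ± 0.12, adjusted p = 0.0448), which was lost in all fits without a pool but that without G0 pool 1 (adjusted p up to 0.0977) and with the pool number as a block (adjusted p = 0.0509). The kinase genes Atm and Atr had -0.21 ± 0.14 and 0.14 ± 0.11 (adjusted p = 0.399 and 0.478), and the effector kinase genes Chek1 and Chek2 had -0.28 ± 0.11 and -0.32 ± 0.12 (adjusted p = 0.188 and 0.154).

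Of 22 telomere maintenance genes tested none passed by limma (median -0.041). Terf1, the shelterin subunit that binds double-stranded telomere repeats, had the lowest value, at 149 and 146 in G0, compared with 105 and 96.9 in G4/G5 (-0.51 ± 0.13, adjusted p = 0.0664). Its partner Terf2 had -0.01 ± 0.12 (adjusted p = 0.968), the telomerase RNA-binding protein Dkc1 had -0.20 ± 0.09 (adjusted p = 0.223) and the tankyrase Tnks had 0.36 ± 0.12 (adjusted p = 0.126). Pot1b, the single-strand binding subunit, was below the filter and read 5.83 and 8.02 against 48.4 and 26.8.

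Among regulators of RNA, Taf15 fell and Cirbp rose. Taf15, which binds RNA, read 209 and 249.7 in G0, compared with 51.4 and 75.2 in G4/G5 and fell by 1.72 ± 0.18 (adjusted p = 0.00244), and its other probe set, below the filter, read 30.8 and 21.6 against 19.6 and 17.2. Cirbp, the cold-inducible RNA-binding protein, read 106 and 171 against 446 and 331 (1.45 ± 0.21, adjusted p = 0.0110). None of the other 45 regulators of this list passed, and 3.97% of all genes tested did. On the 1 probe set taken per gene, none of 21 SR splicing factors passed (median -0.065). Nor did any of 57 core spliceosome genes (median -0.12), of which 45 lay lower. Srsf2 had -0.06 ± 0.08 (adjusted p = 0.646) on its brightest probe set. Its other probe sets at the filter, which were not in the test, had -0.25, -0.36 and -0.53, with no overlap of groups. Those of Srsf3 ran from -1.10 to -0.20, and those of the spliceosome gene Luc7l had -0.72, -0.62 and -0.05. Those of Srsf6 lay higher, at 0.24, 0.23 and 0.12, while its tested probe set lay lower. The picture of these genes thus depends on the probe set taken.

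Ribosome and mitochondrial genes differed little. None of 45 cytosolic ribosomal protein genes (median 0.087, which was -0.049 without the probe sets that may detect several transcripts) or 72 oxidative phosphorylation genes (median 0.024) passed. Of 29 genes of mitochondrial biogenesis and antioxidant defence 1 rose, near the share of 2.99% of all genes tested. It was Gsr, the glutathione reductase, which went from 712 and 836 to 1270.1 and 1171 (0.65 ± 0.11, adjusted p = 0.0172). Of 18 glycolysis genes 2 rose, beside the same 2.99%. These were the glucose transporter Slc2a3 (0.98 ± 0.13, adjusted p = 0.00679) and the lactate dehydrogenase Ldhb (0.66 ± 0.14, adjusted p = 0.0382). None of 18 cholesterol synthesis genes (median -0.18) or 22 genes of the unfolded protein response (median -0.16) passed, and 15 and 17 of them lay lower.

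Of 25 interferon response genes tested 3 passed and of 14 immediate early genes 1, beside 3.97% of all genes. The guanylate-binding GTPase Gbp3 (0.67 ± 0.13, adjusted p = 0.0290) and the immunity-related GTPase Igtp (0.48 ± 0.11, adjusted p = 0.0479) rose and Slfn8, a Schlafen gene, fell, at 58.1 and 64.2 against 26 and 27.4 (-0.95 ± 0.20, adjusted p = 0.0383). Slfn8 was called in 1, Gbp3 in 2 and Igtp in 0 of the 4 fits without a pool. The immediate early gene that rose was the phosphatase Dusp1, at 32.6 and 42.1 against 92.2 and 82.1 (1.04 ± 0.19, adjusted p = 0.0237), which was lost without G4/G5 pool 1 (adjusted p up to 0.0830). Fos had 0.63 ± 0.15 (adjusted p = 0.0566) and Klf6 0.87 ± 0.20 (adjusted p = 0.0512; 0.0492 with the pool number as a block), while Egr1 and Jun read at most 18.7 and 23.2. None of 24 inflammatory and NF-kB genes (median 0.19) or 22 apoptosis regulators (median 0.11) passed. Of 35 chromatin, 19 cell cycle and 38 proteasome genes tested 1 each passed, near the 3.97% of all genes. These were Uhrf1, Hmga2 and the proteasome ATPase Psmc4 (-0.41 ± 0.09, adjusted p = 0.0467), and all fell. Psmc4 was called in 1 of the 4 fits without a pool (adjusted p up to 0.161), and had -0.10 without _x_at, _s_at and _a_at probe sets.

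Most of the 12 largest falls were of genes other than chaperones. Ccnb1ip1, a ubiquitin ligase known from meiotic crossing over, read 267 and 98.2 in G0, compared with 0.710 and 27.2 in G4/G5 and fell by 3.12 ± 0.57 (adjusted p = 0.0252), with a wide spread in both groups, and it was lost with the pool number as a block (adjusted p = 0.0509). Scin, an actin-severing protein, read 81.7 and 76.9 against 7.13 and 18.5 and fell by 2.01 ± 0.28 (adjusted p = 0.00778). Arsk, a lysosomal sulfatase, read 56 and 58.3 against 8.66 and 9.18 and fell by 1.83 ± 0.24 (adjusted p = 0.00644). Bex1, a small adaptor protein of the X chromosome, read 238 and 209 against 67.6 and 62.7 and fell by 1.63 ± 0.13 (adjusted p = 0.000654). In Arsk and Bex1 the pools of each genotype were close to each other.

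Gja1, the gap junction protein connexin 43, read 436 and 293 in G0, compared with 129 and 163 in G4/G5 (-1.24 ± 0.19, adjusted p = 0.0116), and its 3 other probe sets lay on the same side. Hmga2, a chromatin protein of fetal and stem cells, read 60.5 and 51.5 against 15.3 and 17.5 (-1.32 ± 0.23, adjusted p = 0.0210) and missed the threshold without G0 pool 1 (adjusted p up to 0.0570). Rhobtb3, an atypical GTPase, and Golm2, a Golgi membrane protein, had -1.30 ± 0.15 (adjusted p = 0.00346) and -1.28 ± 0.17 (adjusted p = 0.00644). Apart from Hmga2, the 12 largest falls passed in each of the 4 fits without a pool. With no signal filter 2 of the 12 passed, and 3 in the fit of all 8 arrays without G4/G5 CMP pool 1.

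Of the genes called, 184 that rose and 63 that fell were in none of the 37 lists, and a few are named here, chosen after their values were seen. Among the rises were the inhibitory receptor Pirb (2.50 ± 0.27, adjusted p = 0.00257), the beta 2 integrin chain Itgb2 (1.64 ± 0.20, adjusted p = 0.00462), the lectin Clec4a2 (1.89 ± 0.28, adjusted p = 0.0109) and the matrix protein Fn1 (2.40 ± 0.25, adjusted p = 0.00246). The inflammasome sensors Naip2 (1.67 ± 0.22, adjusted p = 0.00574) and Naip5 (1.94 ± 0.28, adjusted p = 0.00949) rose, as did Retnla, a secreted resistin-like protein (2.03 and 6.56 against 85.7 and 94.9, 2.83 ± 0.26, adjusted p = 0.00120). The glucocorticoid-induced gene Tsc22d3 (0.89 ± 0.15, adjusted p = 0.0191), the nuclear noncoding RNA Neat1 (0.87 ± 0.16, adjusted p = 0.0250) and the remodeller Chd7 (1.04 ± 0.16, adjusted p = 0.0115) rose too. Among the falls were the translation factor Eif4e (-0.51 ± 0.11, adjusted p = 0.0479), the spermidine synthase Srm (-0.64 ± 0.14, adjusted p = 0.0442), the arginine transporter Slc7a1 (-0.52 ± 0.10, adjusted p = 0.0284) and the kinase Pim1 (-0.50 ± 0.11, adjusted p = 0.0479). Eif4e, Slc7a1 and Pim1 were called in 1 and Srm in 3 of the 4 fits without a pool.

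Some of the called genes were neighbours in the genome. Of the 327 called genes 31 (9.48%) had as a neighbour along the chromosome, among genes tested, a gene called in the same direction, and 4.07% of the uncalled genes had a neighbour called in the direction of their own difference. The difference between these shares was not tested. Neighbours that rose together included Stfa2l1 and Stfa3, S100a8 and S100a9 with S100a6, Ccl9 and Ccl6, and Naip2 and Naip5, and Hspa1b and Hspa1a fell together. The stefin and HSP70 pairs are near copies that probe sets may not part. Among 23 neighbouring pairs with both genes called, 7 went opposite ways, such as Slfn4, which rose, beside Slfn8, which fell, and Ccl9 (0.88) beside Taf15.

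The GMP changes were then read on the 4 CMP arrays, which took no part in the calls. The sources used do not say whether the same mice gave both cell types. Of the 246 genes called higher in GMP 229 lay higher in G4/G5 CMP (56.0% of all genes did) with a median of 0.70, and of the 81 called lower 65 lay lower (44.0% of all genes did) with a median of -0.28. The groups did not overlap in the same direction for 124 of the 246 (22.2% of all genes) and 32 of the 81 (14.8% of all genes). The higher values rested largely on G4/G5 CMP pool 1, which stood apart. Camp read 6.77 and 4.09 in G0 CMP but 5902 and 1.28 in G4/G5 CMP pools 1 and 2, and S100a9 37.9 and 61.1 but 15175 and 24.6. Ifitm6 was higher in both, at 11.1 and 26.3 in G0 CMP but 3293 and 75.0 in G4/G5 CMP pools 1 and 2. Without that pool 179 of the 246 lay higher (59.2% of all genes) with a median of 0.22, and without pool 2 it was 235 with a median of 1.08. For the genes called lower it was 53 of 81 with a median of -0.22 without pool 1 (40.8% of all genes lay lower) and 66 with a median of -0.48 without pool 2.

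Some genes that fell in GMP read lower in both G4/G5 CMP pools as well. Taf15 read 380.0 and 323 in G0 CMP and 65.3 and 67 in G4/G5 CMP, Arsk 78.2 and 83.5 against 18.1 and 14.5, Rhobtb3 171 and 207 against 54.2 and 68.7 and Slfn8 171 and 135 against 30.7 and 49.1, with no overlap in any of the 4. Hspa1b, in contrast, read 313 and 18.8 against 15.4 and 40.4 in CMP, where the groups overlapped. Tested over 8886 genes on all 8 arrays, no gene passed limma's test of whether its genotype difference in GMP differed from that in CMP (0 calls, 0.0%, 353 at an unadjusted p under 0.05, lowest adjusted p = 0.994). Without G0 CMP pool 1, G4/G5 CMP pool 1 or G4/G5 CMP pool 2 there were 3, 2 and 11 such calls.

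**Figure D5:**
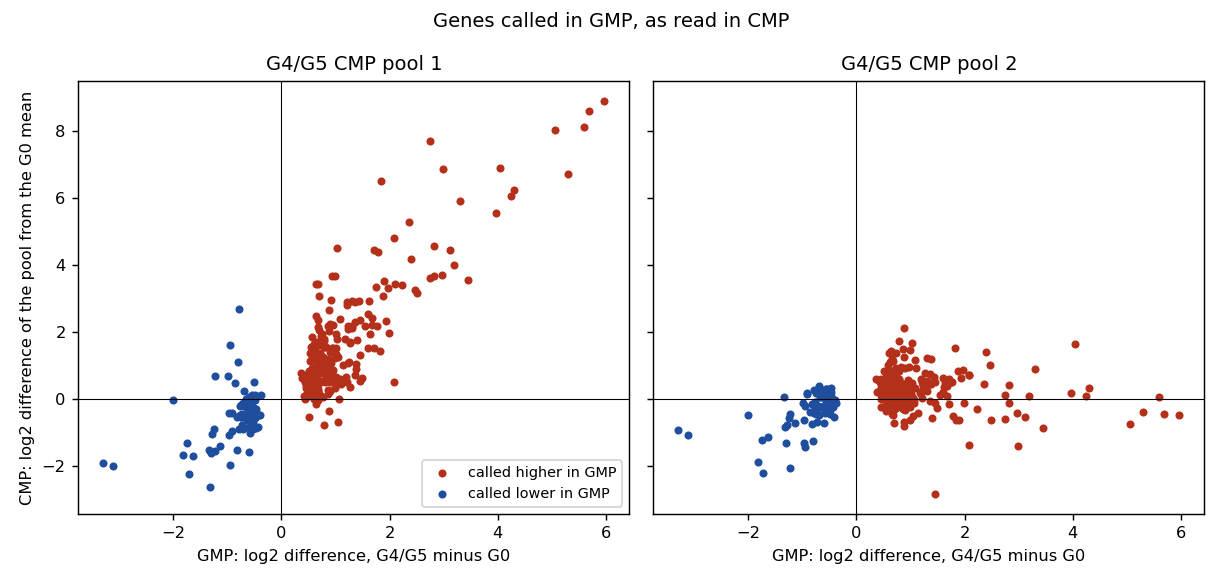
Each of the 327 genes called in GMP, with its log2 difference in GMP (G4/G5 minus G0) on the horizontal axis and, on the vertical axis, the difference of G4/G5 CMP pool 1 (left) or pool 2 (right) from the mean of the G0 CMP pools. Genes with large rises in GMP reach above 8 in pool 1. Many of them lie near 0 in pool 2, though some, such as Ifitm6, lie above it. Genes called lower in GMP lie mostly below 0 in both.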

How the data were processed

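RNA of sorted cells was amplified by in vitro transcription and hybridised to Affymetrix mouse arrays, per the series text. The deposited values are intensities on a linear scale, which the authors made with MAS 5.0 and scaled to a target signal of 100, per the submitters' processing notes and the series text. The trimmed mean was 100.001 on each array, and the sources used give no detection calls. Of 45101 probe sets, 64 control probe sets were left out, 34945 had 1 gene symbol, 932 had several and 9160 had none listed. Of the single-symbol probe sets 34741 matched a RefSeq gene identifier (GRCm38.p6), which changed 0 symbols.

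Log2(signal + 10) was fitted with limma 3.58.1 in R 4.3.3 on the 4 GMP arrays, with an intensity trend and Benjamini-Hochberg adjustment over 8229 genes at 0.05. There were 2 residual degrees of freedom per gene, and 8.63 in total with the spread that limma borrows from other genes. A printed standard error is therefore not the spread of that gene's pools alone. The number of arrays limits the precision. The interaction was fitted on all 8 arrays over 8886 genes. Scripts were tested on simulated data. Lists are given by counts and medians, without a list test.

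Genes were named from the 12 largest rises and falls among called genes whose groups do not overlap, up to 4 non-overlapping members of each list with the largest differences, and the markers; list members not named are in their list's counts. Others were named as examples of their list or after their values were seen. The members and lists were chosen with earlier results of these data known. The submitters name pools 1 and 2 as pairs across genotypes, and deviations of same-numbered pools from their group means correlated at 0.16, so a fit with the pool number as a block was run. Other alternatives were the pseudocount, signal filter, normalization, probe set choice, trend, all arrays in 1 fit, and each pool left out, where a group left with 1 pool was assumed to vary like the other. Gene order and promoters came from RefSeq, and figures from Python 3.11.15 with matplotlib 3.10.9.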

Additional observations from a re-analysis of the deposited data

How the results depend on the processing

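The count of 327 genes ran from 235 to 458 over pseudocounts of 1 and 32, a signal filter of 100, quantile normalization, median centring, both other choices of probe sets and the replicate block (391 with the pool number as a block). It was 23 with no signal filter, where 18193 genes were tested (22 of the 327 remained), 172 without an intensity trend (154 remained), 0 with all 8 arrays in 1 fit and 45 in that fit without G4/G5 CMP pool 1. Leaving out each GMP pool in turn gave 209 to 940 genes. The cause of these shifts was not tested. The interaction had 0 calls under every alternative but those that leave out a CMP pool, where it had 0 to 11. The median of the cytosolic ribosomal proteins turned from 0.087 to -0.049 without _x_at, _s_at and _a_at probe sets. Of the other medians of lists with at least 5 genes tested, under all alternatives, 444 stayed within the spread between pools and 50 moved beyond it. For single named genes, 2358 values stayed on their side of the threshold, 118 passed only under the alternative and 169 only in the reported fit. With the block Ccnb1ip1 and Ube2t were lost (adjusted p = 0.0509 each) and 14 other named genes passed, among them Fcgr3 (0.0267) and Plk1 (0.0492).

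With 2 pools a group and no detection calls, genes near or below a signal of 50 are read with the least certainty, and a gene that missed the threshold is not shown to be unchanged.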
